A study of Mus musculus with 12 samples.

Results

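Pramel6, Pramel7, Pramel5, Zscan4c, Zscan4d, Zscan4f, Tcstv1 and Tcstv3 are mouse genes of early embryos and embryonic stem (ES) cells that belong to multicopy families. The 8 genes were taken by symbol from the authors' deposited blastocyst table, which lists 45706 genes, and ES cell table, which lists 13009 genes. All 8 were listed in the blastocyst table, 3 of them with a mean above 0, and 5 were listed in the ES cell table. The genes had been chosen with their fold changes and p-values in these tables known, so those values are given as a description.

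The series compared RNA from Dis3L WT (wild-type) and Dis3L KO (knockout) mouse material. DIS3L is a nuclease of the RNA exosome in the cytoplasm and digests RNA starting at the 3′ end. The labels give 12 samples in 4 groups of 3: wild-type blastocysts, knockout blastocysts, wild-type ES cells and knockout ES cells. Blastocysts were collected 96 hours after hCG injection and each was made into a library by itself with Tn5 transposase, whereas ES cell libraries were stranded and depleted of ribosomal RNA. All ES cell lines came from blastocysts, were derived on inactivated mouse embryonic fibroblasts and were grown with 500 IU/ml LIF. Each blastocyst library is therefore a separate embryo, and the labels do not give the litters. They do not say how many lines stand behind the 3 ES cell samples of a group, and the ES cell p-values measure only the spread between these samples, which may be technical. A blastocyst holds trophectoderm, epiblast and primitive endoderm cells, and the ES cell samples could hold feeder cells.

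PRAMEL proteins are leucine-rich repeat proteins, several of which act as substrate receptors of cullin ubiquitin ligases, and the family is expanded in rodents. PRAMEL7 marks the inner cell mass and lowers DNA methylation in ES cells by sending UHRF1 to the proteasome. Zscan4 genes encode zinc finger proteins with a SCAN domain, which are made at the 2-cell stage and, in culture, in the small share of ES cells that pass through a 2-cell-like state, together with Tcstv genes. In bulk RNA, fewer cells of a type and less RNA per cell cannot be told apart.

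The tables give no values for single samples. Each mean in a table is the sum of whole reads over the count columns it was made from, each read being worth a fixed step per column, and the reads behind a mean were solved from those steps. The blastocyst means came from 6 columns, 3 on each side of the comparison, and the ES cell means from 4 columns, 2 on each side, although the labels list 6 ES cell samples. Size factors, the relative depths of the columns, ran from 0.695 to 1.62 in blastocysts and from 0.759 to 1.25 in ES cells. A column on the positive side raises the deposited log2 fold change and a column on the negative side lowers it. Neither the headers nor the labels say which genotype was divided by which, so the sides were not assigned to genotypes. Dis3l itself had 14 and 8 reads in the positive-side and 39 and 39 in the negative-side ES cell columns. In blastocysts it had 26, 8 and 0 reads on the positive side against 10, 4 and 8. Values per column below are reads divided by the size factor, called normalised reads.

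Pramel6 and Pramel7 are distinct enough in sequence for their reads to be told apart, and Pramel5 is less so. The first 120 coding bases of Pramel7 and Pramel6, from GENCODE M21 on GRCm38, show how far these neighbours on chromosome 2 have diverged. Pramel5 and its relative Pramel4 are shown because they have not, and bases that differ within a pair after alignment are in capitals.
Pramel7: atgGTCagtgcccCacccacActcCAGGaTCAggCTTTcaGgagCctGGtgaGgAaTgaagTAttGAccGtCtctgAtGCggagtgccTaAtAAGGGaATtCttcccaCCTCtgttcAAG
Pramel6: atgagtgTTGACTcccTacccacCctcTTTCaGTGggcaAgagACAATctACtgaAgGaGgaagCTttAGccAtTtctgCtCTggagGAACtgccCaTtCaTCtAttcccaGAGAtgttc
Pramel5: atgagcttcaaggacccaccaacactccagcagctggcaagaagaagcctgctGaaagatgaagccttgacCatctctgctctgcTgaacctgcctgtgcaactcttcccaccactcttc
Pramel4: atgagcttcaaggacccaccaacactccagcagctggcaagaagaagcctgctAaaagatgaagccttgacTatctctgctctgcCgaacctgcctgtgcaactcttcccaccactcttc
Over the whole coding sequence Pramel7 (1440 bases) and Pramel6 (1458 bases) matched at 57.4% of aligned positions. Pramel5 and Pramel4, each with 1503 coding bases, matched at 90.1%, and the stretch shown differs at 3 bases.

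A read can be placed with certainty only where its sequence occurs in 1 gene. Of all 50-base windows of the longest coding transcript, 0% of Pramel6, 0.442% of Pramel7 and 27.1% of Pramel5 also occurred in a transcript of another gene. The largest overlap of Pramel5 was with Pramel4, at 23.7% of its windows. With 100-base windows the shared part of Pramel5 fell to 4.05%, and that of Pramel6 and Pramel7 was 0%. The Zscan4 copies lie at the other end, with 85.5% of windows shared for Zscan4c, 49.6% for Zscan4d and 95.3% for Zscan4f. Tcstv1 and Tcstv3 shared 16.8% and 31.4%. How the authors' counting treated reads that match several genes is not given in the sources used here.

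**Figure D1:**
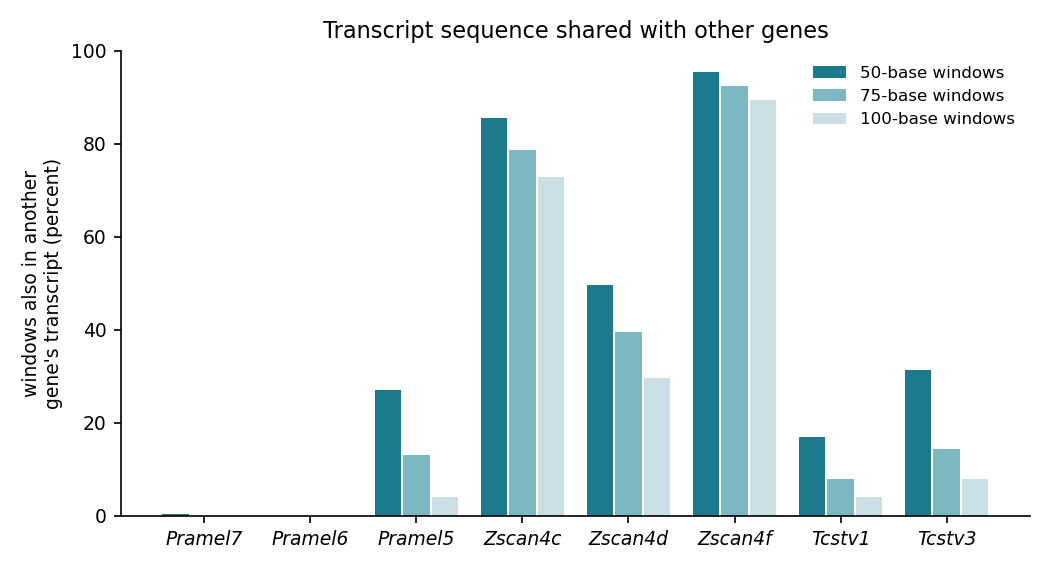
Percentage of windows of the longest coding transcript of each member (GENCODE M21) that also occur in a transcript of another gene, for windows of 50, 75 and 100 bases. Bars for Pramel6 and Pramel7 are at or near 0, while Zscan4c and Zscan4f stand at 85.5% and 95.3% for 50-base windows.

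Pramel7 (ENSMUSG00000025839) lies on chromosome 2 from 87489087 to 87497093 (GRCm38), on the minus strand. In blastocysts it was among the highest transcripts, with a mean of 867 normalised counts in the authors' deposited table, which ranks 525 of 17367 genes with a mean above 0. Its positive-side columns held 1094, 1039 and 825 normalised reads, and its negative-side columns 1157, 557 and 529. The highest value was on the negative side and the sides overlapped. The authors' deposited table gave a log2 fold change of 0.40 ± 0.36 (standard error; Wald test, adjusted p = 0.811). Without negative-side column 1 the log2 ratio of the mean normalised reads, with a pseudocount of 1, was 0.86. Per kilobase of transcript its mean was 466 normalised counts.

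Pramel6 (ENSMUSG00000025838) lies on the plus strand of the same chromosome from 87506565 to 87510872, 9471 bases beyond Pramel7, and the genes are transcribed away from each other. It belongs to the same family and is known, like Pramel7, for high levels in the inner cell mass and in naive ES cells. Its normalised reads in blastocysts were 450, 544 and 57.1 on the positive side. On the negative side they were 1887, 297 and 872. Positive-side column 3 stood far below the other columns, negative-side column 1 stood highest, and the sides overlapped. The authors' deposited table gave a log2 fold change of −1.54 ± 1.05 (standard error; Wald test, adjusted p = 0.811), at a mean of 684. Without negative-side column 1 the log2 ratio of the mean normalised reads, with a pseudocount of 1, was −0.74.

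Pramel5 (ENSMUSG00000036749), a further relative in the Pramel cluster on chromosome 4 (144270633 to 144280488, minus strand), varied most. The positive-side columns held 383, 65.0 and 9.14 normalised reads, and the negative-side columns 1622, 58.0 and 1165. The highest column stood 177-fold above the lowest, each side held columns under 100 normalised reads, and the sides overlapped. The authors' deposited table gave a log2 fold change of −2.64 ± 1.56 (standard error; Wald test, adjusted p = 0.811), at a mean of 550. Without positive-side column 1 the log2 ratio was −4.64, against −2.63 with all 6 columns. Since part of its sequence is shared with Pramel4, a gene of the same cluster, its reads could have been split between them.

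**Figure D2:**
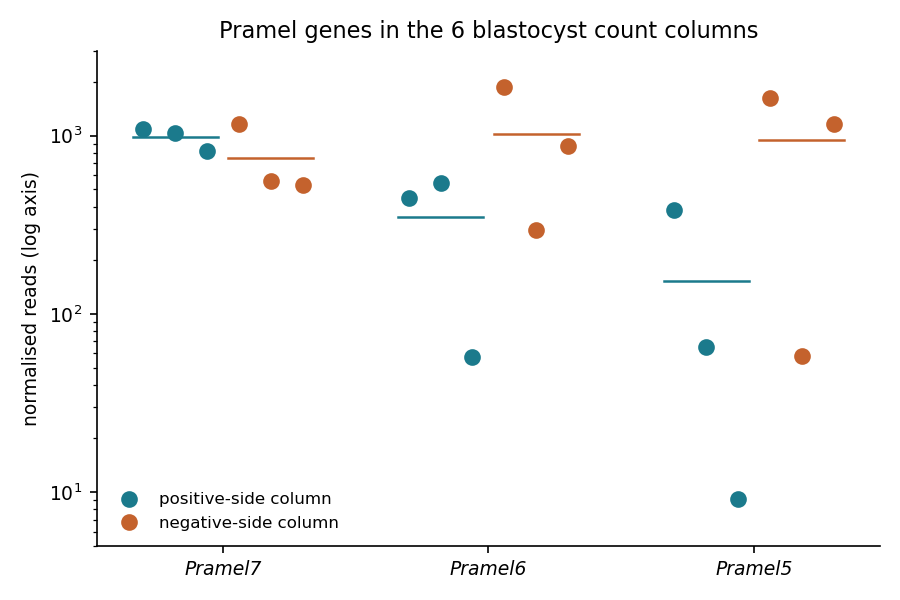
Normalised reads (log axis) of Pramel7, Pramel6 and Pramel5 in the 3 positive-side and 3 negative-side blastocyst count columns, drawn left to right in column order, with a line at the mean of each side. The points of Pramel7 lie within 2.19-fold of each other, while those of Pramel5 run from 9.14 to 1622.

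No Pramel member passed an adjusted p under 0.05 in blastocysts, where 0.0986% of the 15209 tested genes did. At an unadjusted p under 0.05 in the authors' DESeq2 Wald test their count was also 0, against 6.21% of tested genes, and the smallest of their p-values was 0.0911, for Pramel5. The standard errors of Pramel6 and Pramel5 were unusual for their level. Among tested genes with a mean within 2-fold of its own, Pramel6 had a larger standard error than 99.4%, and Pramel5 a larger one than 99.9%. For Pramel7 this share was 64.6%. Over all 6 columns the highest value was 33.0-fold above the lowest in Pramel6 and 2.19-fold in Pramel7. Per kilobase the blastocyst means were ordered Pramel7 (466), Pramel6 (384) and Pramel5 (256), and the column values of neighbours in that order overlapped.

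**Figure D3:**
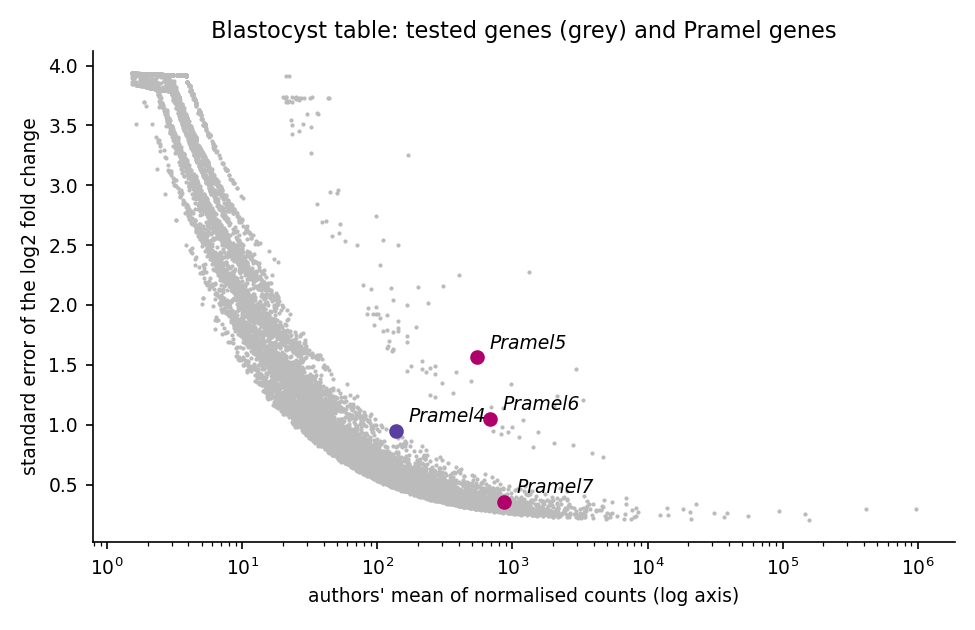
Standard error of the log2 fold change against the mean of normalised counts (log axis) in the authors' deposited blastocyst table, 1 grey point per tested gene. Pramel7 lies in the main band, Pramel6 and Pramel5 lie well above it, and Pramel4 lies at its upper edge.

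Pramel genes outside the 8 were read in the same way. The blastocyst table lists 25 further genes of the family, of which 11 had a mean above 0 and 9 were tested. None passed the adjusted threshold, and 8 of the 9 were negative in log2 fold change, the median being −2.57. At an unadjusted p under 0.05, 2 were negative and 1 positive. In 3 of the 9 a side was at 0, and with these at the floor of 3 reads per column the median was −1.42. Of all tested genes 51.7% were negative, 6.21% had an unadjusted p under 0.05 and the median was −0.04. The 8 are not separate observations, because family copies share sequence. Gm13119 and Pramef6, both among the 8, had reads in negative-side column 1 alone, 24 and 15 of them. C87499 and Pramef25, which were not tested, also had reads in that column alone, 10 and 12 of them. C87977 had 30 and 4 reads in negative-side columns 1 and 2 and 0 in the others. D5Ertd577e had 8 reads in positive-side column 1 and 16 and 7 in negative-side columns 1 and 3.

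Pramel4 had 104, 8.12 and 6.86 normalised reads on the positive side of the blastocyst comparison and 382, 25.6 and 305 on the negative side. Its high columns, negative-side 1 and 3 and then positive-side 1, were the high columns of Pramel5 as well, and the sides overlapped. The authors' deposited table gave Pramel4 a log2 fold change of −2.57 ± 0.95 (standard error; Wald test, p = 0.00688, adjusted p = 0.533). Pramef12 had 11.4, 6.09 and 0 normalised reads on the positive side against 21.0, 93.6 and 20.1 on the negative side, with no overlap. Pramef8 had 116, 73.1 and 96.0 on the positive side against 47.0, 22.3 and 17.3 on the negative side, again apart but in the other direction. In the authors' deposited table their log2 fold changes were −2.92 and 1.70, with standard errors of 1.30 and 0.73 (Wald test, adjusted p = 0.730 and 0.674). Of 600 drawn genes with a mean of 5 to 30, 5.50% had all positive-side columns below all negative-side columns and 3.50% the reverse. The mean of Pramef12, 25.4, lies in that range and that of Pramef8, 61.9, lies above it, so the second share is not matched to Pramef8. Pramel1 and Pramef17, with means of 14.0 and 9.28, overlapped between sides and had log2 fold changes of −1.79 and −0.87 in the authors' deposited table.

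Some markers of the inner cell mass had the high and low columns of Pramel5 and Pramel4. All 10 pluripotent cell markers were tested in blastocysts, 3 of them positive and 7 negative in log2 fold change with a median of −0.20. None passed the adjusted threshold, while 3 negative ones had an unadjusted p under 0.05. Over all tested genes 51.7% were negative and 6.21% had an unadjusted p under 0.05. The summed normalised reads of 8 solved pluripotent cell markers of 10 were 2079, 1111 and 956 on the positive side against 2208, 1900 and 2716 on the negative side. Positive-side columns 2 and 3, where Pramel5 was low, were also the lowest in this sum. Dppa5a and Tfcp2l1, with the largest means of the list (1751 and 1620), were not solved and are not in the sum. Their deposited log2 fold changes were −0.13 and 0.02. Nanog, a core pluripotency factor, had 197, 65.0 and 9.14 against 518, 185 and 331. Dppa3, a maternal factor that keeps UHRF1 from chromatin, ranged most widely, with 260, 10.1 and 0 against 954, 33.4 and 1142. Its high columns were those of Pramel5 and Pramel4, although it is not on the pluripotent marker list. Of that list, Pou5f1 had these high columns too, with 248, 131 and 99.4 against 367, 227 and 515. Tdgf1, also listed, had 180, 146 and 61.7 against 455, 241 and 610 (Wald test, unadjusted p = 0.000459, adjusted p = 0.205). It was highest in negative-side columns 3 and 1 as well, but its sides did not overlap. Of the drawn genes with a mean of 5 to 30, 5.50% were apart in this direction, a share not matched to Tdgf1 (mean 282). Some other markers of the list did not have these columns. Sox2, a core pluripotency factor, had 136, 36.5 and 77.7 against 49.5, 114 and 83.4. Esrrb, an orphan nuclear receptor of naive cells, had 161, 81.2 and 105 against 55.7, 192 and 101. Zfp42, a marker of naive cells, had 600, 317 and 459 against 338, 564 and 524. Pramel7 also went its own way, since it was lowest in negative-side columns 2 and 3, where the marker sum was 1900 and 2716. Nanog, Dppa3, Pou5f1, Tdgf1, Sox2, Esrrb and Zfp42 are named here after their values were seen. In negative-side column 2 Pramel5 stood at 58.0, Dppa3 at 33.4 and the marker sum at 1900. The part of the markers in the Pramel values was not tested.

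Marker genes of the blastocyst's lineages were present in the table. The trophectoderm markers all had a mean above 0, with Krt18, Krt8 and Gata3 at 7678, 5505 and 2072 normalised counts in the authors' deposited table, and Cdx2 at 1866. All 7 primitive endoderm markers and all 10 pluripotent cell markers also had a mean above 0. Of the 12 feeder fibroblast markers 9 were at 0.

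In ES cells, Pramel7 and Pramel6 were almost confined to the negative-side columns. Pramel7 had 5 and 0 reads in the positive-side columns against 110 and 208 in the negative-side columns, which are 3.99, 0, 105 and 201 normalised reads. Pramel6 had 0 and 2 reads against 28 and 70, or 0, 2.63, 26.6 and 67.6 normalised reads. Both genes were high in both negative-side columns, higher in negative-side column 2, and did not overlap between sides. Of 9867 tested genes with solved reads, 20.8% had both positive-side columns below both negative-side columns.

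The reads of a side were added and divided by its summed size factors. By this measure Pramel7 was 61.3-fold lower on the positive side (exact binomial 95% interval 26.00 to 190) and Pramel6 was 47.2-fold lower (12.7 to 396). The intervals cover counting error only and leave out the spread between the 2 columns of a side. PCR copies of a molecule, which cannot be recognised in these libraries, are not covered either. The authors' deposited table gave log2 fold changes of −1.20 for Pramel7, with a standard error of 0.31, and −1.63 for Pramel6, with a standard error of 0.33. These deposited fold changes are smaller than the ratio of the reads, and no standard error in the whole ES cell table exceeds 0.33, as in tables whose fold changes are shrunken towards 0. The adjusted p-values of the Wald test in the authors' deposited table were 0.0387 and 0.000549. Both genes thus passed 0.05, as did 0.261% of the 10739 tested genes, and 0.214% passed with a negative fold change. With autosomal genes alone in the adjustment, the adjusted p of Pramel7 was 0.0570 and that of Pramel6 was 0.000861.

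**Figure D4:**
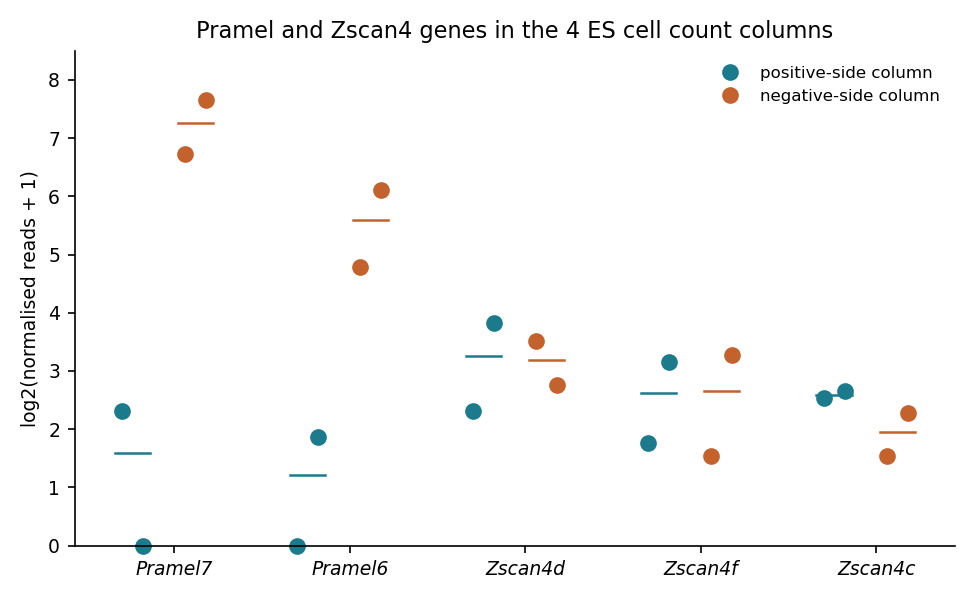
Normalised reads, as log2(value + 1), of the 5 listed members in the 2 positive-side and 2 negative-side ES cell count columns, drawn left to right in column order. Lines mark the mean of each side. Pramel7 and Pramel6 lie above 4 on the negative side and below 3 on the positive side, while the Zscan4 genes lie below 4 on both.

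**Figure D5:**
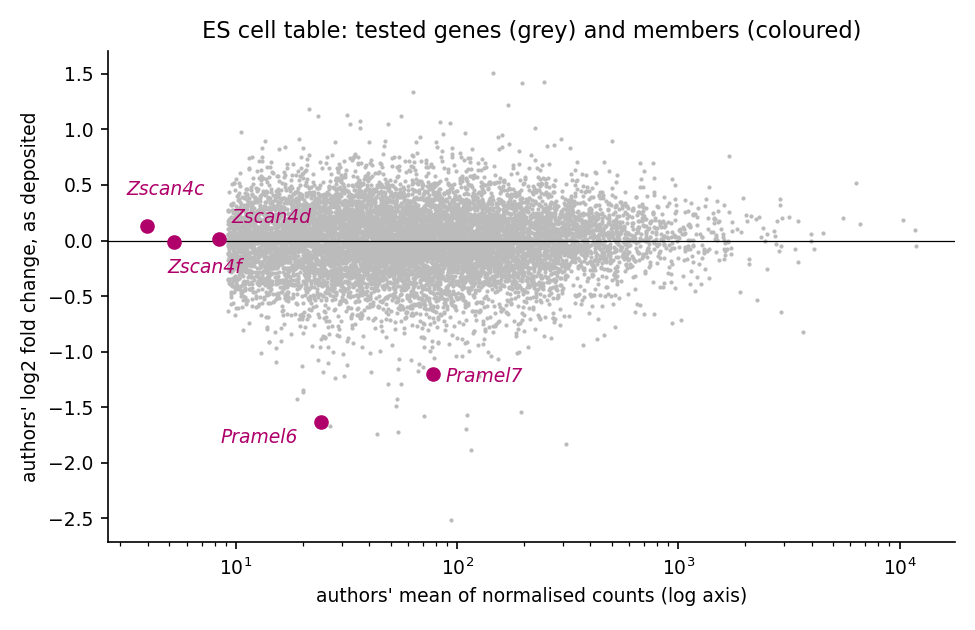
Log2 fold change against the mean of normalised counts (log axis) in the authors' deposited ES cell table, 1 grey point per tested gene and the 5 listed members coloured. Pramel7 and Pramel6 lie at −1.20 and −1.63, and the 3 Zscan4 genes lie between −0.02 and 0.13 at means too low to have an adjusted p-value.

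Feeder and pluripotent cell markers were read per ES cell column. The 11 solved feeder fibroblast markers of 12 summed to 513 and 403 normalised reads on the positive side and to 533 and 1965 on the negative side. Of these 12 markers 11 were negative in the authors' deposited table, against 50.0% of all tested genes. The median log2 fold change of the 12 was −0.34. An unadjusted p under 0.05 was found for 3 negative ones, and for 5.62% of all tested genes. Negative-side column 2, where both Pramel genes were highest, therefore had the highest sum of these markers. Col3a1 alone gave 865 of it. Thy1 (14.5) and Twist1 (8.70) were lowest in that column. The other solved markers were highest there, Col6a1 only barely (74.4 against 74.2 in positive-side column 1). Fn1, with the largest mean of the list (1105), was not solved, and its deposited log2 fold change was −0.05. Against negative-side column 1 alone, the log2 ratio with a pseudocount of 1 was −5.14 for Pramel7 and −3.58 for Pramel6. The 8 solved pluripotent cell markers of 10 summed to 3870 and 3133 on the positive side against 4914 and 4239 on the negative side. Tfcp2l1 and Tdgf1, with the largest means of that list (1613 and 1375), were not solved. Their deposited log2 fold changes were −0.17 and −0.34. All 10 pluripotent cell markers were negative in log2 fold change in the authors' deposited table, against 50.0% of all tested genes, the median being −0.24. None passed the adjusted threshold or an unadjusted p under 0.05, which 5.62% of tested genes did. The part of these markers in the Pramel values was not tested.

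The ES cell table names few genes close to the Pramel pair. On chromosome 2 the nearest listed genes were Tnks1bp1, 2416 kb before Pramel7, and Ptprj, 2919 kb after Pramel6. Their log2 fold changes in the authors' deposited table were −0.03 (standard error 0.26) and −0.87 (standard error 0.30), with adjusted p-values of 1.00 and 0.325 in the Wald test. These neighbours were chosen by distance.

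The genes closest to Pramel6 and Pramel7 in their course over the 4 ES cell columns were ranked by distance. It was computed on log2(normalised reads + 1) after centring each gene, among 5237 tested genes with a mean of 50 to 350. Tested genes with a larger mean were not ranked. The closest to both was Efhc2, an X-linked gene for an EF-hand protein, at a distance of 1.16 from Pramel6 and 3.18 from Pramel7. It had 8.78 and 15.8 normalised reads on the positive side against 131 and 219 on the negative side. The next for Pramel6 were Msln (1.54), Lefty2 (2.42), Lama3 (2.45) and Grik4 (2.62), which encode mesothelin, a Nodal antagonist, a laminin chain and a kainate receptor subunit. For Pramel7 they were Fkbp6 (3.27), Cdh4 (3.42), Grik4 (3.56) and Gm281 (3.61), the first a gene of male meiosis and the second R-cadherin. The distances rest on 4 columns.

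Other Pramel genes in ES cells did not follow the pair. Pramef12 had 97 and 79 reads on the positive side against 43 and 72 on the negative side, and Pramef8 had 20 and 15 against 17 and 8. After normalisation Pramef12 was higher in both positive-side columns (77.4 and 104 against 40.9 and 69.6), as were 20.0% of tested genes with solved reads. Pramef8 overlapped, with 15.97 and 19.8 against 16.2 and 7.73. Their log2 fold changes in the authors' deposited table were 0.49 and 0.23, with standard errors of 0.31 and 0.33 (Wald test, adjusted p of 1.00 for each). Pramef25 had 1 and 3 reads against 4 and 3, which is close to the floor of 3 reads. Pramel5 is not listed in the ES cell table, whose lowest mean is 2.08.

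Genes of the route through which PRAMEL7 acts were taken from a list of 30 symbols. In ES cells 27 were tested, 10 of them positive and 17 negative in log2 fold change, and none passed the adjusted threshold. The negative genes Tbx3 and Dnmt3l had an unadjusted p under 0.05. The median of the 27 was −0.17, against 0.00 over all tested genes. Of the latter 50.0% were negative and 5.62% had an unadjusted p under 0.05. The largest means were those of Tfcp2l1, Tet1, Tet2 and Esrrb, with log2 fold changes of −0.17, 0.27, −0.15 and −0.19 in the authors' deposited table. Tet1 and Tet2 encode enzymes that oxidise methylated cytosine. The genes that follow were picked for their role or after their values were seen. Uhrf1, the target of PRAMEL7, had 468 and 549 normalised reads on the positive side against 536 and 451 on the negative side, with overlap. Dnmt1, the maintenance methyltransferase that UHRF1 brings to DNA, had 493 and 683 against 583 and 579. Stat3, which transmits the LIF signal, had 299 and 270 against 246 and 285. Tbx3, a naive pluripotency factor, had 242 and 138 against 283 and 416, and its log2 fold change in the authors' deposited table was −0.69 ± 0.27 (standard error; Wald test, adjusted p = 0.478). Dnmt3l, also on the list, was lower in both positive-side columns (362 and 419 against 584 and 559), as were 20.8% of tested genes with solved reads. Its deposited log2 fold change was −0.48 ± 0.22 (standard error; Wald test, adjusted p = 0.731). Zfp42, a marker of naive cells, had 182 and 161 against 603 and 192, so that a single column set its negative value. These are RNA levels, and UHRF1 protein was not measured.

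In blastocysts 28 genes of this list were tested, 13 positive and 15 negative, with a median of −0.00 against −0.04 over all tested genes. None passed the adjusted threshold, and 2 positive and 1 negative had an unadjusted p under 0.05. Over all tested genes 6.21% had such a p, and 51.7% were negative. Uhrf1 had 588, 317 and 233 normalised reads on the positive side against 413, 336 and 391 on the negative side, and in the authors' deposited table the standard error of its log2 fold change was 0.41 and the change itself rounded to −0.00. Among genes with the largest means, Klf5, a factor of trophectoderm and inner cell mass, had 2679 normalised counts and Dnmt3b, a de novo methyltransferase, had 1668. Their log2 fold changes in the authors' deposited table were 0.59 and −0.22, with standard errors of 0.27 and 0.28.

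The Zscan4 members stand in a cluster of near-identical copies on chromosome 7. Zscan4c (ENSMUSG00000054272) lies from 11005745 to 11010547 on the plus strand, Zscan4d (ENSMUSG00000090714) from 11161374 to 11166159 on the minus strand and Zscan4f (ENSMUSG00000070828) from 11397915 to 11402318 on the plus strand. Their first 120 coding bases (GENCODE M21, GRCm38) are shown because they make visible how few bases set the copies apart. Bases that differ between the copies are in capitals.
Zscan4c: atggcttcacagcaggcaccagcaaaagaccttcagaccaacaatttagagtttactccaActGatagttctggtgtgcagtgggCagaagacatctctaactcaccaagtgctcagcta
Zscan4d: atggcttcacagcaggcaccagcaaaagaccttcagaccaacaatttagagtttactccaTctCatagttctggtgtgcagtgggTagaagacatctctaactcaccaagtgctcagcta
Zscan4f: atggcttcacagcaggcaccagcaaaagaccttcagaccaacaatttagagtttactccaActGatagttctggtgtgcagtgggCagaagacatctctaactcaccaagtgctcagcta
Zscan4d differs from the other copies at 3 bases here, and Zscan4c and Zscan4f are identical. Over all 1521 coding bases Zscan4c and Zscan4f matched at 99.6%, and Zscan4d matched each of them at 97.7%.

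The sequence before the start of these copies is nearly as alike as their coding parts. The 250 bases upstream of the Zscan4c start, from RefSeq on GRCm38.p6 (plus strand, chromosome 7, 11005495 to 11005744), hold a TATAAA motif, in capitals, at position −54 from the start.
Zscan4c upstream: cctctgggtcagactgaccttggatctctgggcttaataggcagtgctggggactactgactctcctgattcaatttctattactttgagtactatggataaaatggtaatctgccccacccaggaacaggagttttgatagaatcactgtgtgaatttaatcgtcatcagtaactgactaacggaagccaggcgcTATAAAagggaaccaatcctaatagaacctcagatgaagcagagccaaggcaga
The upstream windows of Zscan4d and Zscan4f hold the same motif, and where they overlap the Zscan4c window they matched it at 97.1% and 99.6% of positions. TATAAA on either strand occurs in 12.4% of 32851 such windows. Upstream windows were found for 6 members. The 3 Zscan4 windows had 3 CpG each, Pramel6 had 2, Pramel7 had 1 and Pramel5 had 0, and the median of all windows was 6. The RefSeq start of Pramel7 is 4675 bases inside the gene as the tables place it, so its window is not upstream of the furthest start. The letters TTCNNNGAA (a STAT motif) and TCAAGGTCA (an ESRRB motif) were searched on both strands and occurred in none of the 6 windows. They occur in 7.02% and 0.387% of all windows.

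Zscan4 reads were few in ES cells, and no side stood out. Zscan4d had 5 and 10 reads in the positive-side columns against 11 and 6 in the negative-side columns. Zscan4f had 3 and 6 against 2 and 9. Zscan4c had 6 and 4 against 2 and 4. The sides overlapped for Zscan4d and Zscan4f. After normalisation Zscan4c was higher in both positive-side columns, with 4.79 and 5.27 against 1.90 and 3.87, as were 20.0% of tested genes with solved reads, and the difference is a few reads. Zscan4c, with a mean of 3.96, has no adjusted p-value and is not among those tested genes, so the share is not matched to it.

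Part of the reads of these copies could be placed on more than 1 of them, so their sum is given as well. Zscan4c, Zscan4d and Zscan4f together had 14 and 20 reads on the positive side against 15 and 19 on the negative side, or 11.2, 26.3, 14.3 and 18.4 normalised reads. With the pseudogene copies Zscan4-ps1 and Zscan4-ps3 added, the counts were 22 and 28 against 19 and 24, a log2 ratio of 0.40. The positive-side columns were the lowest and the highest of the 4, with the negative-side columns between them. The authors' deposited table gave log2 fold changes of 0.13 for Zscan4c, 0.01 for Zscan4d and −0.02 for Zscan4f, with standard errors of 0.25, 0.29 and 0.26, and no adjusted p-values. A side-to-side ratio of negative over positive was 0.579 for Zscan4c (exact binomial 95% interval 0.173 to 1.76), 1.09 for Zscan4d (0.513 to 2.35) and 1.18 for Zscan4f (0.444 to 3.22). Differences within these intervals were not detectable at this depth. The intervals again leave out the spread between the columns of a side. For Zscan4f the negative-side columns held 1.90 and 8.70 normalised reads.

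Per kilobase of transcript the order of ES cell means was Pramel7 (41.6 normalised counts), Pramel6 (13.6), Zscan4d (3.68), Zscan4f (2.86) and Zscan4c (1.74). In the negative-side columns Pramel7 lay above Pramel6 and Pramel6 above each Zscan4 gene. On the positive side Pramel7 and Pramel6 overlapped with each other and reached no higher than 3.99 normalised reads, while Zscan4d reached 13.2. The 3 Zscan4 genes overlapped with each other in these columns. Levels in ES cells and blastocysts come from different library types and were not compared.

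In blastocysts Zscan4c, Zscan4d and Zscan4f had a mean of 0, so none of the 6 columns held a read of them. The other Zscan4 genes listed in that table, 2 in number, were also at 0. A count of 0 allows up to 3 reads in a column, which corresponds to 1.86 to 4.32 normalised reads depending on the column. Of the solved read counts of 600 drawn blastocyst genes 98.2% were even numbers, with counts of 0 included as even. The floor may therefore stand for fewer fragments than reads. Tcstv1 and Tcstv3, whose coding sequences of 516 and 510 bases matched at 93.6%, were at 0 as well, as were the 4 other listed genes of their family. Neither gene is listed in the ES cell table.

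Other genes of the 2-cell-like state showed the same sparse picture. In ES cells 13 of the listed genes were present and 6 were tested, 2 of them positive and 4 negative in log2 fold change, the median being −0.05. None passed the adjusted threshold, while 1 negative one had an unadjusted p under 0.05. Over all tested genes 5.62% had such a p, and 50.0% were negative. The most abundant of the listed genes were Tbx3, Foxj3, Slc19a2 and Rxrb, which are also active outside that state, with means of 270.0, 256, 142 and 49.5 normalised counts. Among genes more restricted to it, picked after their values were seen, Gm21761 had 0 and 3 reads against 6 and 2, Gm20767 had 0 and 2 against 5 and 3, Tmem92 had 2 and 4 against 3 and 1, and Usp17lb had 7 and 4 against 2 and 7. These are single-digit counts, and they lay on both sides of the comparison. The remaining untested genes of the list had more reads on the positive side. Abcb5 had 9 and 7 reads against 1 and 1, Gm5039 had 2 and 9 against 1 and 0, and Zfp750 had 12 and 3 against 6 and 1. In blastocysts 22 genes of the list had a mean above 0 and 27 were at 0. Of the 16 tested, 5 were positive and 11 negative, with a median of −0.28, which was the same with the 6 genes that had a side at 0 set at the floor. None passed the adjusted threshold, and 1 negative one had an unadjusted p under 0.05.

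Regulators of the 2-cell-like state were measured at higher levels. Dppa2 and Dppa4, picked for their role with their values known, a pair that activates Dux and Zscan4, had 63.9 and 112 against 98.9 and 96.6 normalised reads, and 151 and 163 against 147 and 111, in ES cells. The sides overlapped for Dppa2, and Dppa4 was higher in both positive-side columns, as were 20.0% of tested genes with solved reads. Of 36 tested regulators in ES cells 17 were positive and 19 negative, with a median of −0.01. None passed the adjusted threshold, while 1 negative one had an unadjusted p under 0.05. Over all tested genes 5.62% had such a p, and 50.0% were negative. The regulators with the largest means were Rif1, Trim28, Mga and Usp7, with log2 fold changes of −0.08, −0.01, 0.32 and −0.17 in the authors' deposited table. Their standard errors ran from 0.19 to 0.21.

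Dppa2 and Dppa4 varied more in blastocysts. Dppa2 had 208, 32.5 and 32.0 normalised reads on the positive side against 377, 156 and 411 on the negative side. Dppa4 had 85.7, 73.1 and 11.4 against 376, 51.3 and 236. Dppa2 was lowest in positive-side columns 2 and 3, Dppa4 was lowest in positive-side column 3, and the sides overlapped for both. In the authors' deposited table their log2 fold changes were −1.79 and −1.96, with standard errors of 0.69 and 0.77 (Wald test, adjusted p = 0.550 and 0.581). Of all 37 tested regulators 21 were positive and 16 negative in blastocysts, with a median of 0.08. None passed the adjusted threshold, and 1 positive and 2 negative had an unadjusted p under 0.05. Over all tested genes 6.21% had such a p, and 51.7% were negative.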

How the data were processed

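The processed data were 1 table of comparison results per material. Per the submitters' processing notes, the authors used STAR 2.4.0b, featureCounts of Subread 2.0.1, SAMtools, bedtools and DESeq2 1.34.0 with GRCm38; options are not given in the sources used here. Per the file headers, the deposited signal column is the authors' mean of normalised counts, the deposited log2 columns are the log2 fold change and its standard error, the deposited score column is the authors' Wald statistic, and the deposited p-value columns are unadjusted and adjusted. Neither table has columns of per-sample values, and 0 such columns were left aside.

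The members and gene lists were chosen with earlier results of these data known. By the rule, named genes were the members, family genes with a mean above 0, called list genes or up to 4 of the largest mean, Dis3l and the 5 genes closest to Pramel6 and Pramel7. Other genes named from the lists were picked for their role or after their values were seen, as the text says. The planned count test needed per-sample counts, so the statistics that the authors deposited were used, at an adjusted p under 0.05. Reads were solved as whole numbers from the means. In blastocysts some larger means had several solutions, 37 for Pramel5, 520 for Pramel6 and 3808 for Pramel7, and the solution closest to the deposited log2 fold change was kept where it stood clear of the next. For Pramel7 it differed by 2.89e-09 and the next by 8.49e-06, for Pramel6 by 1.29e-09 and 7.54e-06, and for Pramel5 no other solution came close. ES cell means up to 350 had 1 solution for 12137 of 12137 genes. Genes with no such solution, or with a mean too large to solve, were left without reads, which includes 2 pluripotent cell markers in each table. On data simulated from the same model that the solution assumes, the search returned the drawn reads in 4 of 4 draws for each of Pramel5, Pramel6 and Pramel7. This checks the search, and cannot show whether the model holds for the deposited values. Depth per ES cell column was 631863 to 1036406 reads in those genes. Transcripts and coding parts came from GENCODE M21, and upstream windows from RefSeq. Calculations used Python 3.11.15, numpy 2.4.6, numba and Biopython. Alternatives were another threshold, other adjustments, other pseudocounts, summed copies and leaving out each column.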

Additional observations from a re-analysis of the deposited data

How the results depend on the processing

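The count of members with an adjusted p under 0.05 was 0 in blastocysts under each of 4 alternatives. In ES cells it was 2, and it stayed at 2 when p-values were adjusted over every gene with a p-value. It was 1 at an adjusted p under 0.01, where Pramel7 (0.0387) no longer passed, 1 with a minimum mean of 50, which removes Pramel6, and 1 with autosomal genes only, where Pramel7 reached 0.0570. Of 57 recomputed fold changes 31 stayed within the authors' standard error, 26 moved beyond it and 0 of the called values changed sign. In ES cells plain ratios of reads were set against deposited fold changes that look shrunken towards 0. There all alternatives for Pramel6 and Pramel7 lay beyond the standard error, also those with every column kept. The 26 therefore do not measure dependence on processing alone. From the solved reads with a pseudocount of 1 the log2 ratios in ES cells were −5.68 for Pramel7 and −4.38 for Pramel6, and with a pseudocount of 0.5 they were −5.94 and −4.71. Leaving out each column in turn gave −7.26 to −4.95 for Pramel7 and −5.59 to −3.58 for Pramel6 in ES cells. In blastocysts it gave 0.20 to 0.86 for Pramel7, −2.0 to −0.74 for Pramel6 and −4.64 to −2.0 for Pramel5. For Zscan4d and Zscan4f the ES cell ratio took either sign, from −0.87 to 0.63 and from −0.89 to 1.08, and for Zscan4c it ran from 0.31 to 1.06. These ratios carry no test. No paired analysis was possible because the tables give no values for single samples and replicate numbers could not be matched to columns. Depth limits the Zscan4 values, which rest on 2 to 11 reads per column.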
